A study of Mus musculus with 12 samples.

Results

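The genes described here are the sestrins Sesn1, Sesn2 and Sesn3 together with Rrm2b, Tigar and Fdxr, 6 of the 14852 genes in the expression table. Apart from Sesn3, which belongs here as a sestrin, they are textbook targets of the tumour suppressor p53, and all have roles in metabolism or nucleotide supply. They were chosen by their input values after cisplatin, because several were lower while most p53 targets were higher, so their own change is given as a description without a test. The cells were ID8, an established mouse ovarian cancer line derived from the ovarian surface epithelium, in 2 conditions, control and cisplatin-treated. Cisplatin is a platinum drug that crosslinks DNA. Dose and exposure time were not given in the sources used here, nor a genotype other than the line's own, whose parental cells are known to carry wild-type Trp53. Each condition had 3 input libraries of fragmented RNA and 3 libraries of RNA precipitated with an antibody against N4-acetylcytidine (ac4C), an acetylated RNA base written by the enzyme NAT10, which made 12 samples in 4 groups. The 6 input samples have a value each, while the precipitated ones are represented by a list of ac4C peaks that the authors called. Nothing in the labels says that the replicates were separate cultures, so p-values measure the spread between these samples, which may be technical.

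Sestrins are stress proteins that restrain the growth kinase mTORC1. They bind the GATOR2 complex on the lysosomal nutrient sensing pathway, SESN1 and SESN2 respond to leucine, and sestrins also act through AMPK and support the antioxidant factor NRF2. Rrm2b encodes p53R2, a small subunit of ribonucleotide reductase that supplies deoxynucleotides for repair and for mitochondrial DNA outside S phase. Tigar encodes a phosphatase that lowers fructose bisphosphate and diverts glucose into the pentose phosphate pathway, a source of NADPH. Fdxr encodes ferredoxin reductase, the mitochondrial enzyme that passes electrons from NADPH to ferredoxins for iron-sulfur cluster and steroid synthesis. Sesn1 is classically induced by p53, Sesn2 by p53 and by the stress factor ATF4, and Sesn3 by FOXO factors.

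Markers of the labelled line were present. Of 10 epithelial and mesothelial markers, 8 reached 1 FPKM, a fragment level normalised for transcript length and sequencing depth, in at least 3 input samples, with a summed level of 2104 to 2137 FPKM in control and 2943 to 3284 FPKM in cisplatin samples. The sum was carried by the keratins Krt8, Krt18 and Krt19. The mean levels of Wt1 (45.1 and 12.4 FPKM), Gata4 (14.6 and 4.71 FPKM), Gata6 (24.9 and 18.1 FPKM) and Upk3b (81.6 and 61.1 FPKM) were lower in cisplatin than in control samples. Krt7 and Lhx9 of that list stayed below 1 FPKM on average in both groups. Of 7 leukocyte markers Cd68 alone was listed (2.22 to 2.57 FPKM in control, 7.50 to 9.72 FPKM in cisplatin samples), and of 4 endothelial markers Tek alone (0.723 to 0.931 FPKM in control, 2.55 to 2.81 FPKM in cisplatin samples). None of the 3 granulosa cell markers was listed. The part of these marker shifts in the results was not tested. Input samples held 19921365 to 29280272 recovered fragments in listed genes, the deepest being cisplatin replicate 2. In bulk samples, fewer cells with an RNA and less of it per cell cannot be told apart.

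Promoter sequences are shown for Sesn1 and Sesn2, the pair of close relatives whose RNA differed in direction. They are the 250 bases before the RefSeq transcription start in the GRCm38.p6 assembly, the assembly behind mm10, read 5′ to 3′ on the gene's strand. RefSeq windows were matched for 5 of the 6 genes, and Sesn1 has 2 start sites. Sesn1, upstream start, lies at chr10:41810324-41810573 on the plus strand, Sesn1, downstream start, at chr10:41887189-41887438 on the plus strand, and Sesn2 at chr4:132510457-132510706 on the minus strand. Capitals mark matches on either strand to the p53 decamer, to GGGCGG, to CCAAT, to TGTTTAC or to TGATGNAA, and a base can belong to more than 1 match.
Sesn1 upstream start: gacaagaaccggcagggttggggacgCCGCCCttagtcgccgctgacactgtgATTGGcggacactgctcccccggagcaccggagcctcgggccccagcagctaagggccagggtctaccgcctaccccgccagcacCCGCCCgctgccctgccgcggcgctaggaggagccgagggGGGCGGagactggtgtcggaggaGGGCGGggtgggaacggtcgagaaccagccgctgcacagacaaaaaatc
Sesn1 downstream start: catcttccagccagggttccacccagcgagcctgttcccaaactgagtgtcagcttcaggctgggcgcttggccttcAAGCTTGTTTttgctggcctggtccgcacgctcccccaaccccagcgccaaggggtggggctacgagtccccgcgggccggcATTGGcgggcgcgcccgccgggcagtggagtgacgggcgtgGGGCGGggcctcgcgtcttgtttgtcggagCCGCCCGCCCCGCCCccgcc
Sesn2 start: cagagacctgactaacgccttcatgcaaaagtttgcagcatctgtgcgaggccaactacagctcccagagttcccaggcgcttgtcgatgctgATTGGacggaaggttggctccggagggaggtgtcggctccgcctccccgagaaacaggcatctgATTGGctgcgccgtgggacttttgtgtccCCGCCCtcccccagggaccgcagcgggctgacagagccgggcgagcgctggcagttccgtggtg

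The downstream Sesn1 window was the one of 6 windows of these genes with a match to the p53 decamer, the unit of the p53 response element, which began 173 bases before the start, and 7.13% of 32851 RefSeq windows of this length hold such a match. GGGCGG, the core of GC boxes, was found 4 times in each Sesn1 window and 1 time in that of Sesn2, and 32.7% of all windows hold at least 1. CCAAT was found 1 time in each Sesn1 window, 2 times in that of Sesn2, 4 times in that of Sesn3, 3 times in that of Tigar and 1 time in that of Fdxr, against at least 1 in 33.8% of all windows. TGTTTAC, a FOXO-type motif (3.17% of all windows), and TGATGNAA, of the kind bound by ATF4 with C/EBP partners (3.45%), had no match in the 6 windows. A match is a description of letters and does not show binding. The expression table has 1 value for Sesn1, so RNA from its start sites was not separated.

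The input samples show how total RNA of each gene differed after cisplatin, and among the sestrins the leading member differed between conditions. Sesn1 stood at 20.3, 19.8 and 19.8 FPKM in the control samples, against 5.02, 4.91 and 5.56 FPKM in the cisplatin samples, with replicates here and below in the order of their numbers. Every cisplatin sample was far below every control sample. The means were 19.97 ± 0.328 and 5.16 ± 0.346 FPKM (SD, n = 3 per group, as for all levels here), a 3.87-fold lower level, and the log2 change of FPKM + 1 was -1.77 (SE 0.052). These levels rested on 5338 recovered fragments in control and 1571 in cisplatin samples.

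Sesn2 went the other way. It measured 10.4, 10.7 and 10.5 FPKM in control samples and 21.6, 23.7 and 20.4 FPKM in cisplatin samples, without overlap. The mean was 10.5 ± 0.170 FPKM in control and 21.9 ± 1.68 FPKM in cisplatin samples, 2.08-fold higher, with a log2 change of 0.99 (SE 0.057). Sesn3 was the least abundant and overlapped between groups. It measured 0.780, 0.644 and 0.714 FPKM in control and 0.763, 0.849 and 0.796 FPKM in cisplatin samples. Its log2 change was 0.07, and it did not reach the minimum of 1 FPKM in 3 samples, so 5 of the 6 genes entered the fit across all genes. The Sesn3 level was low per length rather than poorly counted: 1 FPKM in control replicate 1 corresponded to 345 fragments for Sesn3 and to 89.9 for Sesn1, and 730 and 947 Sesn3 fragments were recovered in the control and cisplatin groups.

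FPKM is per length, so levels of different genes can be added within a sample. The summed sestrin level was lower in every cisplatin sample but changed less than its makeup. It was 31.5, 31.1 and 31.0 FPKM in control samples and 27.4, 29.5 and 26.8 FPKM in cisplatin samples. Sesn1 made up 64.0% ± 0.557 of that sum in control and 18.6% ± 2.06 in cisplatin samples. Sesn2 made up 33.7% ± 0.748 and 78.5% ± 2.11, and Sesn3 2.28% ± 0.206 and 2.88% ± 0.0924. The ratio of Sesn2 to Sesn1 was 0.509, 0.540 and 0.532 in control samples and 4.30, 4.84 and 3.68 in cisplatin samples.

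**Figure D1:**
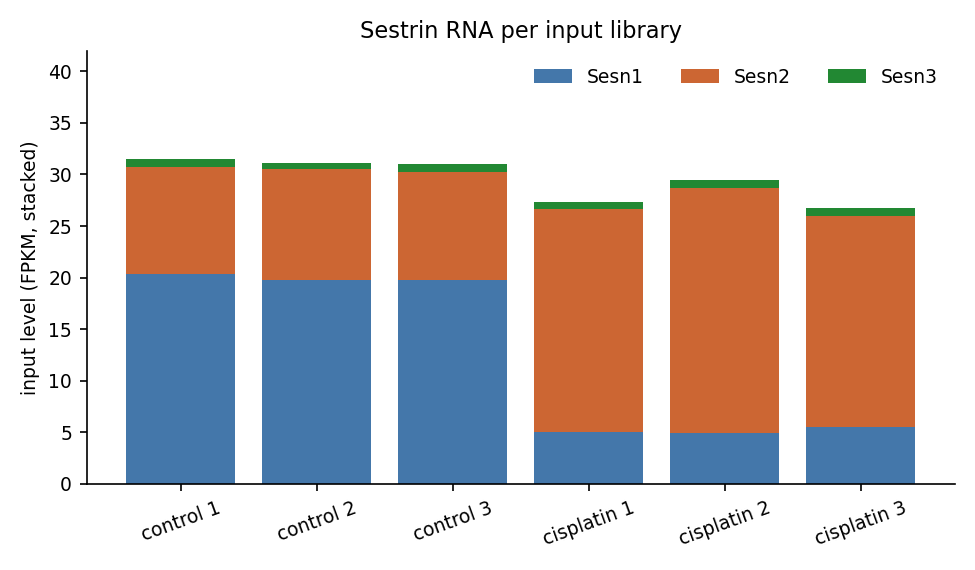
Stacked FPKM of Sesn1, Sesn2 and Sesn3 in each of the 6 input samples. The sum stays between 26.8 and 31.5 FPKM, while Sesn1 is the largest part in the 3 control samples and Sesn2 in the 3 cisplatin samples.

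Rrm2b, the p53-responsive ribonucleotide reductase subunit, was lower in every cisplatin sample. It measured 3.74, 3.72 and 3.86 FPKM in control and 1.33, 1.20 and 1.46 FPKM in cisplatin samples. The mean went from 3.77 ± 0.0786 to 1.33 ± 0.131 FPKM, 2.84-fold lower, with a log2 change of -1.04 (SE 0.063). The authors' deposited table gives a log2 change of -1.51 for Rrm2b; adding 1 FPKM before the logarithm understates the change of low genes. Rrm2, the S-phase small subunit that competes for the same large subunit, measured 31.6, 28.3 and 28.8 FPKM in control and 72.5, 74.8 and 72.5 FPKM in cisplatin samples. Rrm2b thereby made up 11.3% ± 0.675 of the summed Rrm2 and Rrm2b level in control and 1.78% ± 0.200 in cisplatin samples.

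Tigar had the widest spread of the 6 genes. It measured 3.55, 3.86 and 3.14 FPKM in control and 1.61, 2.28 and 1.34 FPKM in cisplatin samples. The groups did not overlap, but cisplatin replicate 2 was 1.55 times the mean of the other cisplatin replicates. The mean was 3.52 ± 0.357 FPKM in control and 1.74 ± 0.486 FPKM in cisplatin samples, 2.02-fold lower, and the log2 change was -0.73 (SE 0.13). The SD between the 3 cisplatin samples was 27.9% of the mean for Tigar, against 7.70% from counting alone at its mean of recovered fragments, and without replicate 2 the cisplatin mean was 1.47 FPKM and the log2 change -0.87.

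Fdxr differed least among the genes that were lower. It measured 9.75, 9.81 and 9.63 FPKM in control and 8.40, 8.80 and 7.63 FPKM in cisplatin samples. All cisplatin samples lay below all control samples, though by little. The mean went from 9.73 ± 0.0896 to 8.28 ± 0.596 FPKM, 1.18-fold lower, and the log2 change was -0.21 (SE 0.056). The 95% counting interval of Fdxr in the highest cisplatin sample, 8.18 to 9.45 FPKM, overlapped that of the lowest control sample, 8.87 to 10.4 FPKM, and intervals of this kind cover counting error only. For Sesn1, Sesn2, Rrm2b and Tigar the intervals of the nearest samples of the groups did not overlap.

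**Figure D2:**
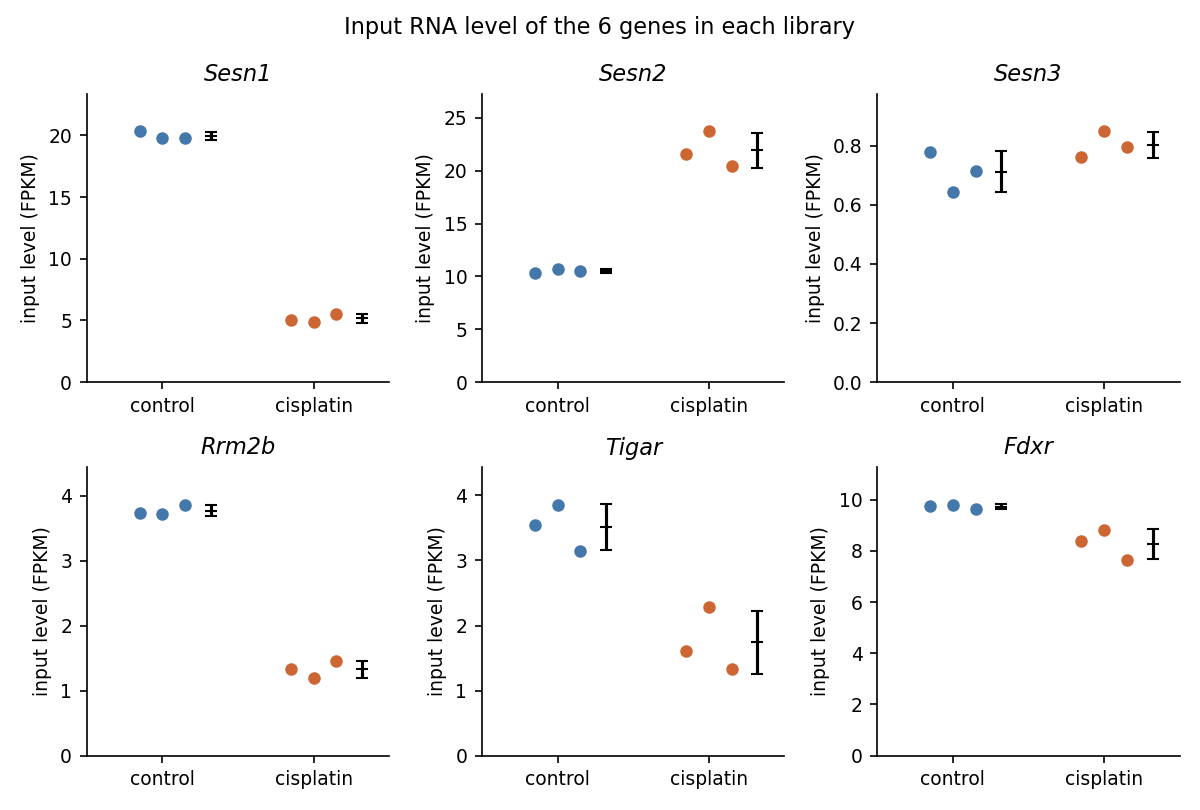
Input FPKM of each of the 6 genes, with 1 point per sample (control left, cisplatin right), the mean as a dash and the SD as a bar; every axis starts at 0. Sesn2 is higher in all 3 cisplatin samples, Sesn1, Rrm2b, Tigar and Fdxr are lower in all 3, and Sesn3 overlaps.

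The order of levels changed accordingly. In control samples it ran from Sesn1 through Sesn2, Fdxr, Rrm2b and Tigar to Sesn3, and Rrm2b (3.72 to 3.86 FPKM) and Tigar (3.14 to 3.86 FPKM) were the neighbours that overlapped. In cisplatin samples it ran from Sesn2 through Fdxr, Sesn1, Tigar and Rrm2b to Sesn3, and Tigar (1.34 to 2.28 FPKM) and Rrm2b (1.20 to 1.46 FPKM) again overlapped. Non-overlapping groups were common in this comparison, with 84.2% of the 11449 tested genes, so the same finding in 5 of the 6 genes is no result about them. By the fit across all genes 40.1% of tested genes passed as higher and 41.1% as lower.

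The genes whose profile was most like that of each member were sought among 10040 other tested protein-coding genes, by the root mean square difference of mean-centred log2(FPKM + 1) over the 6 samples. Nearest to Sesn1 were Ccdc149 (0.0297) and Atg7 (0.0390), and nearest to Sesn2 were Eno3 (0.0154) and Nol6 (0.0207). Nearest to Rrm2b were Zbtb20 (0.0223) and Arhgap19 (0.0240), nearest to Tigar Smpd1 (0.0472) and Plpp5 (0.0578), nearest to Fdxr Tdp1 (0.0145) and Slc4a2 (0.0160), and nearest to Sesn3 Oxsr1 (0.0189). With 2 conditions, such likeness reflects mainly a change of similar size.

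Other p53 targets mostly rose. Of 45 tested genes on a list without the 6, 37 rose and 3 fell, with a median log2 change of 0.89 against -0.003 over all genes tested. Of all tested genes 40.1% passed as higher and 41.1% as lower, the background for the p53 lists here. These lists were drawn up with earlier results of the same samples known, so the counts are not independent evidence of a direction. Plk2, a stress-induced polo-like kinase, rose from 63.1 ± 1.60 to 357 ± 2.21 FPKM (limma adjusted p = 2.67e-08), and Cdkn1a, the cell cycle inhibitor p21, rose 27.1-fold (limma adjusted p = 3.20e-08). Mdm2, the ligase that restrains p53, rose 4.91-fold and Triap1, an inhibitor of apoptosis, 4.89-fold. The tetraspanin gene Cd82 (log2 change -0.96), Thbs1 (-0.22) and the DNA repair gene Xpc (-0.19) fell, and these 3 are named because of their values. Of 17 tested p53 targets with a metabolic role, 11 rose and 4 fell, with a median log2 change of 0.52, and whether the lists differ was not tested. Prkab1, a regulatory subunit of AMPK, rose 2.05-fold, Hk2, a hexokinase, 1.85-fold and the cholesterol exporter gene Abca1 from 0.960 ± 0.0963 to 6.46 ± 0.325 FPKM. Pank1, which starts coenzyme A synthesis, was at 5.63 ± 0.193 FPKM in control and 0.235 ± 0.145 FPKM in cisplatin samples, and passed the minimum level through the control samples alone, so its place among the 4 that fell rests on that group. Pdk2 (2.87-fold), Sco2 (3.39-fold) and Fuca1 (1.41-fold), also named because of their values, fell too. Without control replicate 1, 2 or 3 the count of lower genes was 2, since Pank1 and Sco2 then missed the minimum level.

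Gene span did not enter the choice of genes, but it was looked at after their values were seen. Sesn1 covers 97.9 kb of the genome (chr10:41810574-41908436, ENSMUSG00000038332) and Sesn3 49.8 kb (chr9:14276301-14326134, ENSMUSG00000032009). Rrm2b covers 37.2 kb (chr15:37923952-37961119, ENSMUSG00000022292) and Tigar 24.4 kb (chr6:127085116-127109552, ENSMUSG00000038028). Sesn2 covers 17.7 kb (chr4:132492804-132510456, ENSMUSG00000028893) and Fdxr 9.08 kb (chr11:115268024-115277101, ENSMUSG00000018861), all as RefSeq spans on GRCm38.p6. Among the 5 genes in the fit, the log2 change was -0.21 for Fdxr, the shortest, and 0.99 for Sesn2. It was -0.73 for Tigar, -1.04 for Rrm2b and -1.77 for Sesn1, the longest. The genes were chosen by their input values, so these changes cannot show a trend with span.

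Over all tested protein-coding genes with a RefSeq span (10016 of 10049), longer genes had lower log2 changes. The median was 0.19 in 2391 genes under 10 kb, 0.14 in 2050 genes of 10 to 20 kb, 0.03 in 2871 genes of 20 to 50 kb, -0.12 in 1504 genes of 50 to 100 kb and -0.51 in 1200 genes over 100 kb. The share that passed as lower went from 31.2% under 10 kb to 48.2% at 50 to 100 kb and 73.7% over 100 kb. Among the other p53 targets the median was 0.98 in 37 genes under 20 kb and 0.41 in 25 genes of 20 kb or more, a difference that was not tested, and the number that passed as lower was 4 and 3. Sesn1, Rrm2b, Tigar and Fdxr were chosen as lower genes, so their place below the median of a span class follows from the choice. This split by span was chosen after the values were seen, and its part in the change of the 6 genes was not tested.

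**Figure D3:**
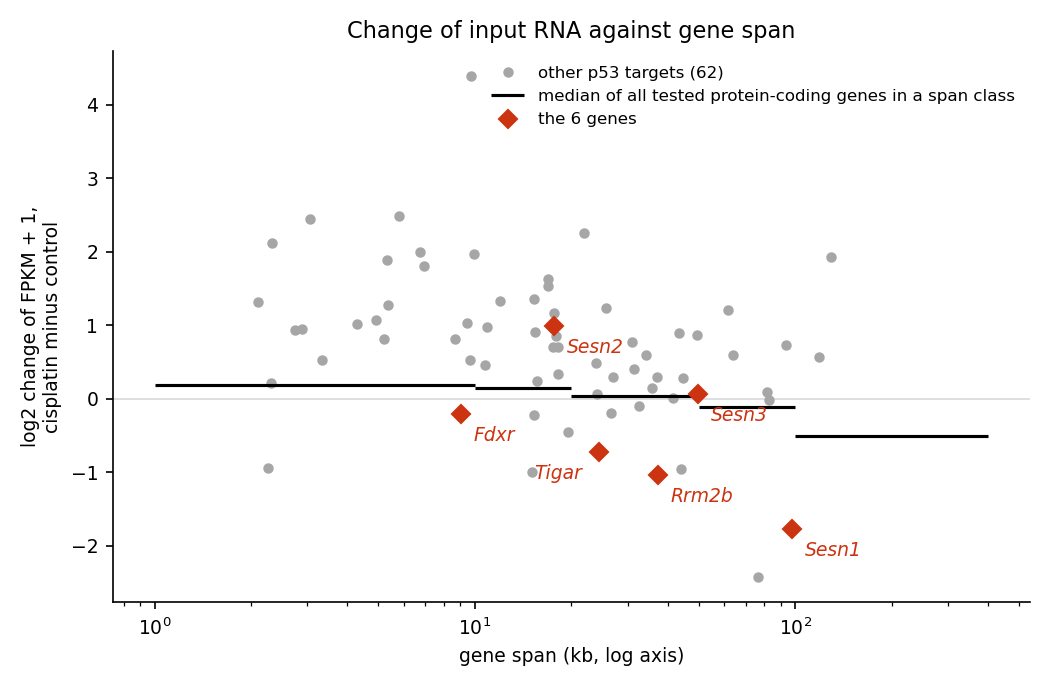
Log2 change of FPKM + 1 (cisplatin minus control) against RefSeq gene span in kb on a log axis, for the 6 genes (diamonds) and the 62 other tested p53 targets (grey points); black lines are medians of all tested protein-coding genes by span class and step from 0.19 to -0.51. Sesn1, Rrm2b, Tigar and Fdxr lie below the line of their class and Sesn2 above it, and Sesn3 (0.07) lies next to it.

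Partners of the sestrins included genes of either direction, as did the tested genes at large, of which 40.1% passed as higher and 41.1% as lower. These shares are the background for each of the following lists. Of 24 tested genes of GATOR2, GATOR1, KICSTOR, the Rag GTPases and Ragulator, 11 rose and 7 fell, with a median log2 change of 0.07. Without cisplatin replicate 1, 2 or 3 the count that rose was 8, 7 or 9. Leaving out a sample also changes which genes pass the minimum level. Wdr24, a GATOR2 subunit, rose from 3.74 ± 0.237 to 10.9 ± 0.708 FPKM (limma adjusted p = 1.38e-06), and Lamtor4 of Ragulator rose 2.55-fold. Depdc5, the GATOR1 subunit that contacts the Rag GTPases, fell 1.91-fold to 5.68 ± 0.395 FPKM. Rragb had 1 recovered fragment in the control group and 283 in the cisplatin group, and a different assignment of its reads was not tested. It passed the minimum level through the cisplatin samples alone, so its place among the 11 that rose rests on that group. Among mTORC1, TSC and AMPK subunits 10 of 18 rose and 6 fell, with a median of 0.35. Mtor itself fell from 19.2 ± 0.242 to 11.7 ± 0.462 FPKM (limma adjusted p = 3.82e-06), while Akt1s1, an mTORC1 inhibitor, rose 1.58-fold and Prkaa1, a catalytic subunit of AMPK, 1.45-fold.

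In the redox list 10 of 19 genes rose and 3 fell, with a median log2 change of 0.15. Nfe2l2, which encodes NRF2, rose 1.95-fold, thioredoxin (Txn1) 1.58-fold and thioredoxin reductase (Txnrd1) 1.39-fold, and the mitochondrial peroxiredoxin gene Prdx3 fell 1.47-fold. Of 22 tested genes for FOXO factors, for ATF4 with its relatives and upstream kinases and for ATF4 targets, 9 rose and 10 fell, with a median of -0.02. Atf3 rose 10.1-fold, Ddit4, an mTORC1 inhibitor, 2.55-fold, Ppp1r15a 1.97-fold and Cebpb 4.09-fold. In the other direction, among ATF4 targets, Asns (asparagine synthetase) fell 1.41-fold and Slc7a5 (an amino acid transporter) 1.76-fold. Slc7a11 (a cystine transporter) fell 1.77-fold and Trib3 1.60-fold. Ddit3, Chac1 and Psat1 rose 1.49-fold, 1.23-fold and 1.06-fold, while Vegfa, Slc3a2 and Atf5 fell 1.51-fold, 1.29-fold and 1.28-fold. Phgdh did not pass the threshold. All genes from Asns to Phgdh were named after their values were seen. Atf4 RNA, given because ATF4 regulates Sesn2, was 562 ± 3.26 FPKM in control and 579 ± 14.4 FPKM in cisplatin samples (limma adjusted p = 0.271), and the FOXO factors, given because they regulate Sesn3, did not share a direction. Foxo3 and Foxo4 fell by 0.25 and 0.20 on the log2 scale (limma adjusted p = 0.00381 and 0.00815), Foxo6 rose 1.85-fold (limma adjusted p = 0.00100), and Foxo1 had a log2 change of -0.03 (limma adjusted p = 0.702). Levels of these factors as RNA do not give their activity.

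Around Rrm2b, 11 of 18 tested genes of ribonucleotide reductase and deoxynucleotide supply rose and 3 fell, with a median log2 change of 0.42. Rrm2 rose 2.48-fold (limma adjusted p = 4.30e-07) and Rrm1, given as the gene of the large subunit that Rrm2b also needs, 1.23-fold (limma adjusted p = 0.00107). Shmt1, of one-carbon metabolism, rose 2.79-fold and Dtymk, thymidylate kinase, 2.19-fold. Nme2 had 2 recovered fragments in the control group and 705 in the cisplatin group. It passed the minimum level through the cisplatin samples alone, so its place among the 11 that rose rests on that group. It has a close relative, Nme1, given for that reason, which rose from 1.29 ± 0.127 to 3.93 ± 0.153 FPKM. A different split of reads between Nme1 and Nme2 was not tested. Around Tigar, 5 of 15 genes on a list for fructose bisphosphate and pentose phosphate metabolism rose and 4 fell, with a median of 0.03. The count that fell was 2 without any 1 of the control replicates. G6pdx, the first enzyme of the pentose phosphate pathway, fell 1.45-fold to 104 ± 4.33 FPKM and Pfkl, liver phosphofructokinase, 1.90-fold. Rpia, a pentose phosphate isomerase, rose 2.91-fold. The list also holds the mitochondrial phosphatase gene Pgam5, not an enzyme of these pathways, which rose 2.24-fold.

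Around Fdxr, 9 of 19 ferredoxin and iron-sulfur cluster genes rose and 7 fell, with a median of 0.03. Nfs1, the cysteine desulfurase, rose 1.42-fold, while the cluster carrier gene Nfu1 fell 3.03-fold. Lyrm4, a partner of Nfs1, had 331 recovered fragments in the control group and 2 in the cisplatin group, and a different assignment of reads was not tested. The ferredoxins that accept electrons from Fdxr, named for that role after their values were seen, are given by their levels. Fdx1 measured 1.73 ± 0.399 FPKM in control and 0.245 ± 0.0515 FPKM in cisplatin samples, and Fdx1l, also called Fdx2, 0.783 ± 0.264 and 4.44 ± 1.16 FPKM. Fdx1 and Lyrm4 passed the minimum level through the control samples alone, so their places among the 7 that fell rest on that group. Fdx1l passed it mainly through the cisplatin samples, where it is high.

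**Figure D4:**
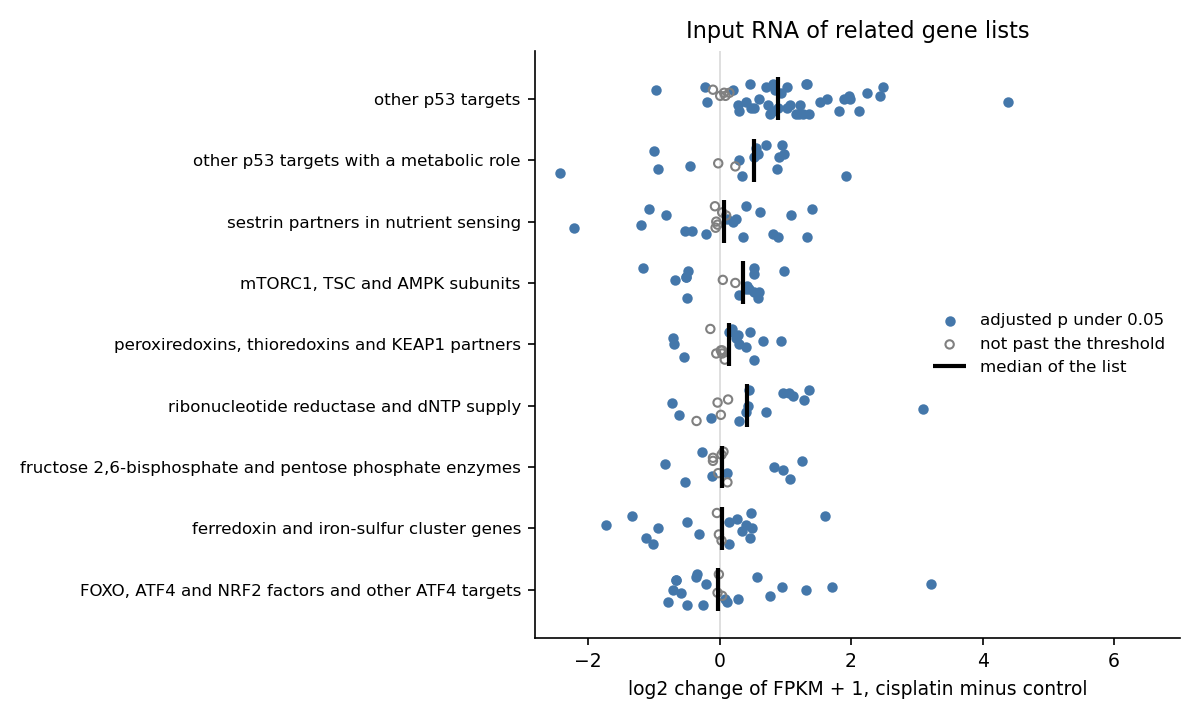
Log2 change of FPKM + 1 for each tested gene of the 9 lists, without the 6 genes; filled points passed a limma adjusted p of 0.05 and bars are list medians. The medians are 0.89 for other p53 targets and 0.52 for those with a metabolic role, and lie between -0.02 and 0.42 for the rest.

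The peak table asked where ac4C-enriched fragments lie and whether their enrichment differed between treatments. It gave 11 peaks for 5 of the genes, counted as listed without a threshold on their adjusted peak p, and 0 for Sesn1. Among 3120 protein-coding genes with a mean control level within 2-fold of that of Sesn1, 82.8% had at least 1 peak. That match used the control level alone, and Sesn1 was at 5.16 FPKM in cisplatin samples. Of all tested genes, 65.6% had a peak. Sesn2 had 4 peaks, Rrm2b 3, Sesn3 2, and Tigar and Fdxr 1 each, where the median gene with a peak had 2 and 15.5% had 4 or more. Of the 11, 7 were classed by the authors as 3′ untranslated and 4 as coding, against 29.5% and 50.5% of all 19049 peaks. The peaks have no value per sample, and all peak values below are those of the authors' deposited table.

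By fold enrichment of precipitated over input RNA, the strongest was a 3′ untranslated peak of Sesn2 at chr4:132492990-132493380 (mm10), with 22.3-fold in the authors' deposited table, above 91.9% of all peaks when ties are averaged. Sesn3 followed with 15.3-fold at a coding peak, chr9:14314609-14315292, and the same value at a 3′ untranslated peak, chr9:14332321-14332501. The single Tigar peak, at chr6:127085386-127085566, had 10.6-fold. The single Fdxr peak, which joins 4 exonic blocks within chr11:115270341-115271849, had 8.23-fold with the lowest peak p of the set (1.6e-13 in the authors' deposited table). The log10 adjusted peak p of the Tigar peak was -0.851 in the authors' deposited table, the weakest of the 11. That of the coding Rrm2b peak was -1.23. Neither of these peaks passed an adjusted peak p of 0.05, so their enrichment over input RNA is uncertain. The median of the 11 was 9.4-fold against 7.05-fold over all peaks. Both distal Sesn2 peaks (chr4:132492092-132492242, 3.72-fold, and chr4:132492421-132492631, 2.43-fold) and the distal Sesn3 peak lay 173 to 6187 bases beyond the RefSeq end of their gene, although the authors' annotation classed them as 3′ untranslated.

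Differences in enrichment between treatments were called for 2 of the 11 peaks (18.2%) at the authors' adjusted p of 0.05, against 46.2% of all peaks. One was the coding peak of Sesn2, 301 exonic bases in 3 blocks within chr4:132493739-132496976, with 9.4-fold enrichment, a log2 difference of 4.22 and an adjusted p of 0.00398 in the authors' deposited table. The other was a 3′ untranslated peak of Rrm2b at chr15:37925928-37926228, with 4.7-fold enrichment, a log2 difference of 4.13 and an adjusted p of 0.00776 in the authors' deposited table. The Rrm2b peak next to it, at chr15:37925449-37925599, had a log2 difference of 0.415, and its coding peak, within chr15:37929066-37931635, a log2 difference of 1, neither of them called. The file headers do not state the direction of this difference. As deposited, 9 of the 11 differences were above 0 and 2 below, those of the strongest Sesn2 peak (-1) and of the coding Sesn3 peak (-0.874), and 75.8% of all peaks were above 0. Sesn2, whose input RNA was higher, and Rrm2b, whose input RNA was lower, thus had called differences of the same sign and like size, with no replicate value behind either. Of all called peaks 79.2% were above 0, so the shared sign is no result about these genes. Tigar (log2 difference 1.58) and Fdxr (1.35) had adjusted p-values of 0.687 and 0.263 in the authors' deposited table.

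**Figure D5:**
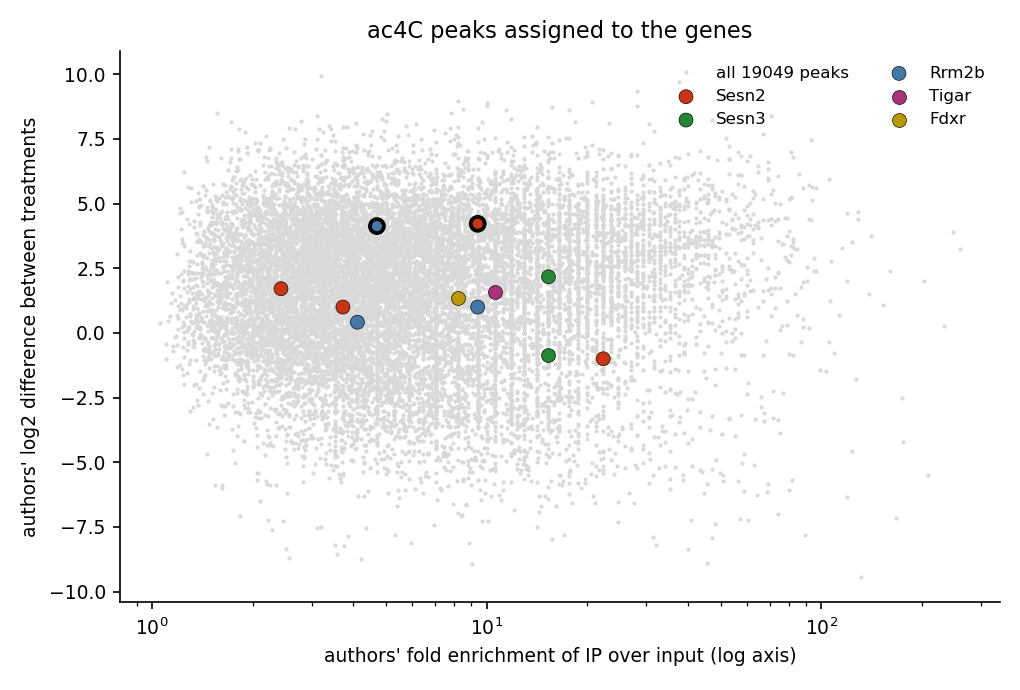
The authors' log2 difference between treatments against their fold enrichment of precipitated over input RNA (log axis) for all 19049 peaks (grey) and the 11 peaks of 5 of the genes (coloured); thick rims mark the 2 peaks called at the authors' adjusted p of 0.05. These 2, of Sesn2 and Rrm2b, lie at 4.22 and 4.13, and the others between -1 and 2.17.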

How the data were processed

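RNA was depleted of ribosomal RNA, fragmented and divided before precipitation, and libraries were strand-specific and paired-end, per the labels' protocols. Fastp, FastQC, HISAT2, HOMER and mm10 are named in the submitters' processing notes; tools not given in the sources used here include the counter and peak caller, and the annotation and strand setting are unstated too. The authors deposited input FPKM per gene with a log2 change and p-value of their own, and, for ac4C peaks, a fold enrichment, a log2 difference and log10 p scores, per the file headers. FPKM values were whole multiples of 1 fragment, within a tolerance of 0.0001, for 14850 of 14852 genes, which gave recovered fragments. Where true numbers share a divisor these are understated.

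The fit took genes that reached 1 FPKM in 3 or more input samples and was made with limma 3.58.1 in R 4.3.3 (lmFit, eBayes with trend) on log2(FPKM + 1), cisplatin against control, Benjamini-Hochberg adjusted over all 11449 genes at a threshold of 0.05. The scripts were tested on simulated data. Python 3.11.15, pandas 2.3.3 and scipy 1.17.1 did the rest. Peak starts were converted to counting from 1. Named genes are the 6, up to 4 per list with the smallest adjusted p, and the 2 most alike genes per member; 2 genes that this rule names are not reported here, and genes named outside it (for their role or after their values were seen) are marked where they appear. The members and the 9 lists were chosen with earlier results of these data known. Alternatives were other pseudocounts, filters, scalings, left-out replicates, the replicate number as a block, other peak thresholds and, added after seeing the data, voom on recovered fragments.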

Additional observations from a re-analysis of the deposited data

How the results depend on the processing

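The log2 changes of the 6 genes kept their sign in all 64 values from 13 alternative settings, and 52 of these moved by less than the SD between replicates. The range was -2.03 to -1.74 for Sesn1, 0.90 to 1.05 for Sesn2, -1.59 to -0.93 for Rrm2b, -1.07 to -0.62 for Tigar and -0.30 to -0.16 for Fdxr; Sesn3 entered 1 alternative, with 0.07. A filter at 5 FPKM, which tests fewer genes (7230), left 2789 genes lower, and 6 higher and 2 lower p53 targets with a metabolic role. It also left 7 higher sestrin partners, 2 lower fructose bisphosphate and pentose phosphate genes and 4 lower ferredoxin and iron-sulfur genes. Quantile normalization gave 6 lower redox genes; the cause was not tested. Leaving out 1 sample at a time, which also changes which genes pass the minimum level, gave 2 to 4 lower metabolic p53 targets, 2 to 5 lower fructose bisphosphate and pentose phosphate genes and 7 to 10 higher sestrin partners. With the replicate number as a block, 4592 genes passed as higher and 4684 as lower. With libraries rescaled to a common sum these counts were 4064 and 5316, and with voom 4295 and 5166. Rescaling gave 8 higher and 8 lower sestrin partners, 4 and 6 fructose bisphosphate and pentose phosphate genes, and 6 and 7 ferredoxin and iron-sulfur genes. Other p53 targets were then 36 higher and 4 lower. Same-numbered samples correlated at 0.097, -0.116 and 0.043 in their deviations from group means, not every sample correlated best with its own number, and the samples share only a number. Both called peaks also passed an adjusted p of 0.01 and an absolute log2 difference of 1. Precision is limited by 3 samples per group. For Tigar, with 865 and 506 recovered fragments in the groups, the spread between samples was wider than counting alone gives. Its SD was 10.2% of the mean against 5.89% from counting in control, and 27.9% against 7.70% in cisplatin samples. For Sesn2 these values were 1.61% against 3.50% in control and 7.65% against 2.25% in cisplatin samples. The control SD was also below counting for Sesn1 (1.64% against 2.37%), Rrm2b (2.08% against 3.60%) and Fdxr (0.921% against 4.05%). For Sesn3 it was above counting (9.57% against 6.41%).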
